A study of Mus musculus with 9 samples.

Results

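Differentiating progenitors of the embryonic mouse cortex were compared with both populations that flank them in the neuronal lineage, proliferating progenitors on one side and neurons on the other. A gene was taken as a transient rise where its 3 values in differentiating progenitors all lay above all 6 values of the flanking groups, and as a transient dip where all 3 lay below. By that rule 674 of the 21210 genes in the table were rises, 3.18% of them, and 731 were dips, 3.45%. "Transient" names a position between sorted groups of 1 age, not a time course.

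The 9 libraries came from lateral cortex of C57BL/6 embryos at embryonic day 14.5, and the genotype label of all of them is Btg2GFP/Tubb3GFP. The animals carry 2 reporters, 1 driven by Btg2, a gene that is switched on when a progenitor takes up a neurogenic division, and 1 by Tubb3, the neuronal tubulin. The labels disagree on colour: titles speak of red fluorescence for Btg2, but both alleles carry GFP in the genotype. Proliferating progenitors are the cells negative for the Btg2 reporter, a gate that any non-red cell can enter, differentiating progenitors are the cells positive for it, and neurons are the cells positive for the Tubb3 reporter. No group lacks the reporters. Each library is a pool of cells from more than 3 embryos of different litters, taken after meninges and ganglionic eminences were removed, and the labels give 3 biological replicates per group. The values are normalised read counts. In such bulk samples, fewer cells of a type and less RNA per cell cannot be told apart.

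In the developing cortex, radial glial cells line the ventricle and divide to renew themselves or to give neurons, often through an intermediate progenitor that leaves the ventricle and divides once more. Proneural basic helix-loop-helix transcription factors drive this step, and they switch on Notch ligands that hold neighbouring cells in the progenitor state. The transcription factor Eomes (Tbr2) is the usual marker of intermediate progenitors, Pax6 of radial glia and Tbr1 of early cortical neurons.

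The marker levels followed the labels. Btg2 stood at 14022, 14635 and 19983 in differentiating progenitors, at 8952, 7032 and 9336 in proliferating progenitors and at 3299, 2645 and 3390 in neurons. The groups did not overlap, although the gate called Btg2 negative held Btg2 RNA in each library. Tubb3 was at 10937, 13097 and 9711 in differentiating progenitors, between 1158 and 2511 in proliferating progenitors and 39932 and 50230 in neurons. The summed values of 26 intermediate progenitor markers ran from 136494 to 159194 in differentiating progenitors, from 56673 to 67102 in proliferating progenitors and from 48289 to 62189 in neurons. Sums over 30 radial glia markers (245377 to 274338, then 109465 to 154368, then 29187 to 33815, in the order of the lineage) and over 28 pan-neuronal genes (33619 to 44305, 96148 to 114439 and 425210 to 467445) had the differentiating progenitors in between. Red blood cell markers summed to 106279 to 261637 in proliferating progenitors and to at most 4004 in the other groups. Endothelial and mural markers (1692 to 6133, 948 to 1247, 374 to 589), microglial markers (540 to 635, 345 to 422, 163 to 184) and oligodendrocyte lineage markers (2732 to 3306, 1324 to 2035, 692 to 792) were also highest in proliferating progenitors, each range being given in the order of the lineage. The part of these cells in the results was not tested. Normalised totals ran from 17531558 to 22076409 per library, and depth could be estimated in 7 libraries, at 12700000 to 27600000 reads.

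Of the 15828 genes with enough reads to test, 349 were higher in differentiating progenitors than in each flanking group at a Benjamini-Hochberg adjusted p below 0.05 in both limma contrasts, 2.2% of the genes tested, and 397 were lower, 2.51%. With the replicate number as a block the same thresholds gave 779 rises and 874 dips, which held all 349 and all 397. Counts per list with this replicate block, given below, belong beside these larger totals of the 15828 genes, not beside 2.2% and 2.51%. Of the called rises 343 were without overlap and 6 were not, and of the called dips 389 were without overlap and 8 were not. Both rules read the same values, so neither is independent support for the other. Among the genes without overlap, 41 rises and 38 dips were too low to test, with no value above 26 and 31 in any library. Fewer libraries make the rule of no overlap easier to meet, but replicate 1 of the differentiating progenitors moved its counts most. Leaving it out raised the genes without overlap to 1214 rises and 1191 dips. Without replicate 2 of that group there were 901 rises and 946 dips, and without replicate 3 there were 835 and 924. The reason for this difference between replicates was not tested. For the limma calls, leaving out 1 library at a time gave 222 to 359 rises and 249 to 457 dips, and the low ends came without differentiating progenitor replicate 2 (222 rises, 256 dips) and replicate 3 (227 rises, 249 dips). When the larger of a gene's 2 p-values was adjusted instead, 142 rises and 136 dips passed.

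**Figure D1:**
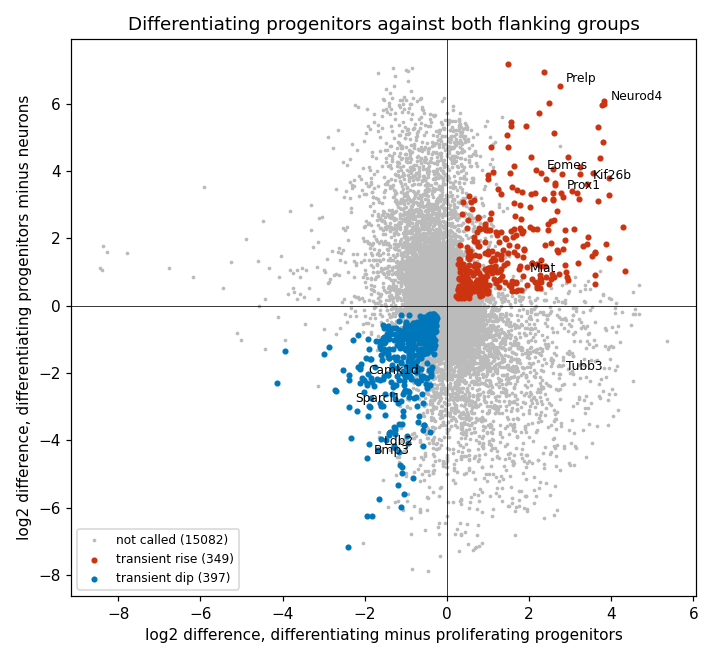
Each point is 1 of the 15828 genes tested, with its log2 difference between differentiating and proliferating progenitors on the horizontal axis and between differentiating progenitors and neurons on the vertical axis. The 349 called rises (red) lie at the upper right, the 397 called dips (blue) at the lower left, and Tubb3 lies at the lower right with genes that increase along the lineage.

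The size of a transient change is given below as the log2 difference, on values plus 1, from the nearer flanking group, which understates changes of low genes. Called rises had a median of 0.78 and reached 3.83, and called dips had a median of -0.76. At least 4-fold changes were found for 51 rises and 13 dips. For 205 rises and 267 dips the nearer group was the proliferating progenitors. Between the flanking groups themselves, at the same threshold, 70 of the rises were higher in neurons than in proliferating progenitors, 114 were lower and 165 passed in neither direction. For the dips these numbers were 180, 33 and 184. Just inside the rule of no overlap stood the rise Baz1b, a chromatin remodeller subunit, at 11340 to 11898 in differentiating progenitors with 11337 as the highest value elsewhere, and just outside it Tubg1, a gamma-tubulin, at 1304 to 1374 with an equal 1304 in neurons. For dips these were Epb4.1, a membrane skeleton protein, at 5042 to 5582 with 5590 as the lowest value elsewhere, and Nin, a centrosomal protein, at 614 to 1009 with 1009 in proliferating progenitors.

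Transcription factors of the neurogenic programme included Neurod4, the largest rise by the naming rule. That rule takes only called genes without overlap, so the separation of the genes it names is a condition, not a result. Of 29 tested proneural and neurogenic factors, 9 were called rises (31%) and none a dip. This list and those below were chosen with earlier results of these data known, so their shares are descriptions and no independent support. The median difference of the 29 from the mean of both flanking groups was 1.43, against 0.01 over all genes tested. It was 2.63 against proliferating progenitors and -0.11 against neurons, so the median member was not above neurons. Neurod4, a proneural factor that acts downstream of the neurogenins, was at 589, 741 and 634 in differentiating progenitors, at 76, 36 and 33 in proliferating progenitors and at 24, 4 and 8 in neurons. Every differentiating progenitor library exceeded the highest other library, and the difference was 3.83 ± 0.54 (log2, SE) against proliferating progenitors (adjusted p = 0.00105) and 5.97 ± 0.54 against neurons (adjusted p = 1.46e-05). Eomes was at 19440, 24416 and 23584, against 5939, 4485 and 3585 in proliferating progenitors and 2276, 996 and 1409 in neurons. Its groups were far apart, with differences of 2.29 ± 0.29 (adjusted p = 0.000498) and 3.92 ± 0.29 (adjusted p = 3.37e-06).

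Prox1, a homeobox factor of differentiating neural precursors, was at 911, 786 and 657 in differentiating progenitors, 107, 133 and 99 in proliferating progenitors and 132, 82 and 40 in neurons. The flanking groups overlapped each other and lay below all 3 differentiating progenitor libraries, by 2.78 ± 0.37 (adjusted p = 0.000718) and 3.34 ± 0.37 (adjusted p = 5.21e-05). Hes6, which counteracts Hes1 and promotes neuronal differentiation, was at 4577, 4935 and 5114, against 2267, 1696 and 1716 and against 1669, 1477 and 1515. It was the called rise among 12 Hes, Hey and Id genes tested (8.33%, against 2.2% of all genes tested), of which the replicate block gave 2. Hes6 rose by 1.38 ± 0.12 (adjusted p = 8.42e-05) and 1.65 ± 0.12 (adjusted p = 3.36e-06). Ebf2, a helix-loop-helix factor of early neurons, was at 164, 118 and 145 against 7, 7 and 11 and against 60, 46 and 52, a difference of 1.41 from neurons. Neurog2, Myt1 and Insm1, which complete the list of called factors and are named after their values were seen, rose by 1.01, 0.85 and 0.75. Neurog1, a proneural gene at 861, 847 and 854 against 414, 260 and 263 and against 9, 6 and 2, rose by 1.48, but its larger adjusted p was 0.0513 to 0.084 when any 1 of 5 progenitor libraries, all but proliferating replicate 1, was left out.

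Other neurogenic factors were not transient, and these too were chosen after their values were seen. Neurod1 was at 2585, 2873 and 2413 in differentiating progenitors and at 4251, 2730 and 2644 in neurons, which overlapped (adjusted p = 0.58). Nhlh1 was at 2164, 2387 and 2172 and, in neurons, at 2669, 1695 and 2063 (adjusted p = 0.858). Both lay above 68 to 241 in proliferating progenitors. Tbr1 stood at 2347, 3046 and 2664, between proliferating progenitors (106 to 319) and neurons (15162 to 18123).

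The intermediate progenitor list held 15 called rises and 1 dip among 25 tested members (60% and 4%). Members include the sorting gene Btg2, so the list is not independent of the gate. Nor is it independent of these data, since its members were chosen with earlier results of them known. Mfng, a glycosyltransferase that modifies Notch, was at 4108, 5070 and 4830 in differentiating progenitors against 1376, 1046 and 1061 and against 830, 483 and 569, and rose by 2.01 ± 0.2. Mfap4, an extracellular matrix protein, was at 3472, 4286 and 4120 against 475, 348 and 299 and against 1499, 784 and 1177, and the nearer group was the neurons, by 1.82 ± 0.24. Gadd45g, a stress sensor that restrains the cell cycle, was at 3326, 6272 and 7742 against 1005 to 2036 and 1488 to 1908, a rise of 1.67 ± 0.33. Its lowest differentiating progenitor library, replicate 1, still exceeded all 6 flanking libraries. Igsf8 and Coro1c, a membrane protein of the immunoglobulin family and an actin regulator, rose by 1.42 and 1.08 and were picked after their values were seen. The dip in this list, Kif26a, is described with its relative Kif26b below.

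Upstream sequence is shown for 3 of these named rises because it holds CAGATG or CAGCTG, forms of the E-box that proneural factors bind. The sequences are the 250 bases before the annotated start in RefSeq on GRCm38.p6, 5′ to 3′ on the gene's strand, with these hexamers in capitals and other forms of the E-box not marked. Those of Prox1, at chr1:190170828-190171077 on the minus strand, and Hes6, at chr1:91414039-91414288 on the minus strand, have one 179 and 171 bases before the start. That of Gadd45g, at chr13:51846425-51846674 on the plus strand, has one 55 bases before the start.
Prox1: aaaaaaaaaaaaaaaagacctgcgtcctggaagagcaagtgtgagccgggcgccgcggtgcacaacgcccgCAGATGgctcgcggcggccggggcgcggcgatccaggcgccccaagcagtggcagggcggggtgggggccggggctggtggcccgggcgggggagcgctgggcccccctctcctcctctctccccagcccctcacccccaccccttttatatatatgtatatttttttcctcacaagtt
Hes6: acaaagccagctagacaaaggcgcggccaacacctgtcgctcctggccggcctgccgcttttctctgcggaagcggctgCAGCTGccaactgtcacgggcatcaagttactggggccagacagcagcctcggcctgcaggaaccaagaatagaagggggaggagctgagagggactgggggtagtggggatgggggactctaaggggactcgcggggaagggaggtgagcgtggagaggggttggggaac
Gadd45g: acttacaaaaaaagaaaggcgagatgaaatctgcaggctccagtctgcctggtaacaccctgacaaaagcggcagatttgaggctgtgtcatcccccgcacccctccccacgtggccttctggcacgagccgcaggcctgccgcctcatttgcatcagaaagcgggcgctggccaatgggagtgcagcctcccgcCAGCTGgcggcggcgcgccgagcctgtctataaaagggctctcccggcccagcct

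Both strands were searched for the hexamers CAGATG, whose reverse complement is CATCTG, and CAGCTG, its own reverse complement, which do not overlap each other here, in windows from 250 bases before to 50 after the start. Of 27025 RefSeq windows, 17.2% held the former and 16.1% the latter. The windows of Neurod4, Eomes and Dll4 held neither hexamer. A comparison over the called genes is void, because 77.7% of the rises, 72.8% of the dips and 70.9% of all genes tested had a window, under the 80% needed. A hexamer match describes the letters and is no evidence of binding.

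**Figure D2:**
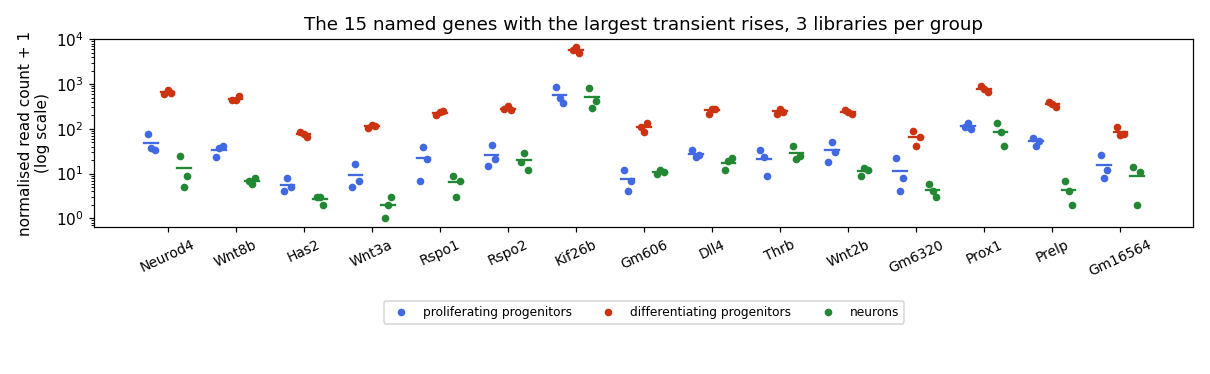
Normalised read count plus 1 on a log axis for the 15 largest called rises without overlap and with a group mean of at least 50. Points are the 3 libraries per group and bars the group means. The 3 differentiating progenitor points lie above all 6 others in each gene because the selection asked for it.

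Wnt ligands and their potentiators were 5 of the 15 largest named rises. Of 38 tested Wnt pathway genes, 12 were called rises (31.6%) and 1 a dip (2.63%). Of these rises, Wnt3a, Rspo1, Sp5 and Wnt9a passed the filter only because of their differentiating progenitor values, so the filter itself adds to that share. Among ligands, Wnt8b was at 442, 438 and 528 in differentiating progenitors, 22, 37 and 41 in proliferating progenitors and 6, 5 and 7 in neurons. The 3 groups were fully separate, and the differences were 3.82 ± 0.26 (adjusted p = 3.2e-05) and 6.07 ± 0.26 (adjusted p = 1.79e-07). Wnt3a, best known in the embryonic forebrain from the cortical hem at its medial edge, was at 105, 120 and 112 against 4, 15 and 6 and against 0, 1 and 2. It rose by 3.78 ± 0.52 (adjusted p = 0.000859) and 5.96 ± 0.52 (adjusted p = 1.08e-05). With most flanking values below 10, Wnt3a was tested only because of its differentiating progenitor values. Wnt2b, another ligand known from the hem, was at 266, 241 and 210 against 17, 51 and 30 and against 8, 12 and 11, a rise of 2.96 ± 0.36.

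The secreted R-spondins stabilise Wnt receptors at the cell surface. Rspo1 was at 204, 234 and 247 in differentiating progenitors, 6, 38 and 20 in proliferating progenitors and 8, 2 and 6 in neurons. Rspo2 was at 272, 315 and 259, against 14, 42 and 20 and against 17, 28 and 11. Neither gene had a flanking library within the range of the differentiating progenitors, and they rose by 3.68 ± 0.62 (adjusted p = 0.00251) and 3.56 ± 0.43 (adjusted p = 0.000396) against proliferating progenitors. Against neurons the differences were 5.32 ± 0.62 (adjusted p = 7.06e-05) and 3.94 ± 0.43 (adjusted p = 4.49e-05). Rspo1, like Wnt3a, was tested only because of its differentiating progenitor values.

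Receptors and targets of the pathway were also called, and Axin2, Sp5, Fzd1, Lef1, Rnf43 and Wnt9a are named after their values were seen. Axin2, a feedback inhibitor widely used as a readout of canonical Wnt signalling, was at 2208, 1887 and 2092 in differentiating progenitors, 1368, 1390 and 1569 in proliferating progenitors and 808, 723 and 733 in neurons, a rise of 0.52 ± 0.1 over the nearer group. Sp5, a direct target, was at 102, 86 and 88 against 7 to 26 and 4 to 6, a rise of 2.59, and the receptor Fzd1 rose by 0.56. Lef1, a transcription factor of the pathway, rose by 0.66 and lost its call without differentiating progenitor replicate 3 (adjusted p = 0.0594). Rnf43, which removes Wnt receptors, rose by 2.05, but its larger adjusted p was 0.0535 to 0.083 without any 1 of the 6 progenitor libraries. The remaining rises were Wnt9a (2.58) and Dkk3 (0.54), an atypical member of the Dickkopf family, a call that was lost when replicate 3 of the proliferating progenitors was left out (adjusted p = 0.0588). The dip was the ligand Wnt4, at 5, 4 and 5 against 10 to 19, a call that was lost without that same library (adjusted p = 0.0554) or without replicate 2 of the differentiating progenitors (adjusted p = 0.0508).

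Some Wnt genes were not called in either direction. Wnt5a, a ligand of the non-canonical branch, was at 700, 798 and 673 in differentiating progenitors, with neurons below them at 634, 572 and 539. It was highest in the middle group without overlap, but the difference from neurons missed the threshold (0.31 ± 0.17, adjusted p = 0.143, and 0.0518 with the replicate block). Wnt7b was at 2194, 2198 and 2127, between 462 to 759 in proliferating progenitors and 9254 to 11968 in neurons. Rspo3 likewise lay in between, at 377, 369 and 271 against 21 to 36 and 980 to 1095. The last 3 genes were chosen after their values were seen.

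Of 35 tested genes of the Notch pathway, 5 were called rises (14.3%) and 1 a dip (2.86%), and the replicate block gave 8 and 2. Among ligands, Dll4 was at 218, 280 and 276 in differentiating progenitors, 32, 22 and 25 in proliferating progenitors and 11, 18 and 21 in neurons. The lowest differentiating progenitor library was far above the highest flanking one, and the rise was 3.25 ± 0.27 (adjusted p = 6.77e-05) and 3.91 ± 0.27 (adjusted p = 2.59e-06). Dll1, the main ligand that proneural factors induce, was at 7142, 7370 and 8044 against 3410, 3556 and 3531 and against 4477, 3400 and 3744. Its rise was smaller, 0.96 ± 0.1 over the neurons (adjusted p = 4.71e-05), and its groups did not overlap. Dll3, a relative that acts inside the cell, was named after its values were seen and rose by 0.93, with 608, 708 and 722 against 403, 311 and 359 in neurons.

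Jag1, a ligand of the other family, went a different way, at 317 ± 16.5 (mean, SD, n = 3) in differentiating progenitors and 932, 1112 and 986 in proliferating progenitors, while neurons at 221, 327 and 269 overlapped the differentiating progenitors (adjusted p = 0.219, chosen after its values were seen). Among modulators, Mfng rose as given above and Cbfa2t2, a transcriptional corepressor, was at 6663, 7528 and 7680 against 2292 to 3287 and 2772 to 3231, a rise of 1.26 ± 0.14. The target Hes5, chosen after its values were seen, was not called. It stood at 5102, 1978 and 2048, overlapping the proliferating progenitors at 6710, 3586 and 3142 (adjusted p = 0.342), with replicate 1 high in both groups. With the replicate block, it was lower in differentiating progenitors by -0.62 ± 0.12 (adjusted p = 0.00188), as it was in each of the 3 pairs of the same number. The dip Dner, a Notch-binding protein of neurons, fell by 0.41 and lost its call when replicates 2 and 3 were used alone (adjusted p = 0.0846) or without any 1 of 7 libraries (adjusted p = 0.0534 to 0.135).

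Other genes among the 15 largest named rises had varied roles. Has2, which makes hyaluronan, was at 84, 75 and 65 in differentiating progenitors, 3, 7 and 4 in proliferating progenitors and 2, 2 and 1 in neurons. With flanking values this low the rise of 3.79 ± 0.36 rests on few reads outside the differentiating progenitors, although no library overlapped. Prelp, a matrix proteoglycan, was at 388, 348 and 311 against 61, 41 and 53 and against 6, 3 and 1, a rise of 2.74 ± 0.41. Thrb, a thyroid hormone receptor, was at 218, 280 and 231 against 32, 22 and 8 and against 41, 20 and 24, a rise of 3.11 ± 0.46. Gm606 and Gm6320, genes under provisional names, rose by 3.29 and 2.8. Optc, the neighbour of Prelp on the same strand, was also a called rise.

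Kif26b, an unconventional kinesin tied to cell adhesion, was at 5656, 6563 and 5031 in differentiating progenitors, 870, 478 and 376 in proliferating progenitors and 827, 290 and 420 in neurons. It rose by 3.4 ± 0.39 (adjusted p = 0.000341) and 3.62 ± 0.39 (adjusted p = 4.8e-05). Its paralogue Kif26a moved in the opposite direction, at 2360, 1520 and 1994 against 4989, 3732 and 4319 and against 9897, 8302 and 8899. No library of either gene overlapped between the middle and the flanking groups, and Kif26a fell by 1.16 on the log2 scale against proliferating progenitors (SE 0.17, adjusted p = 0.00111).

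Receptors of reelin, the secreted signal that guides cortical layering, also split. Lrp8 (ApoER2) was at 14758, 18454 and 17428 in differentiating progenitors, 5455, 4792 and 4211 in proliferating progenitors and 13161, 12222 and 11264 in neurons. It was a small rise, 0.46 ± 0.12 over the neurons (adjusted p = 0.0104), and was not called when the larger of both p-values was adjusted. Vldlr, the other receptor, was at 411, 495 and 505 against 927, 1120 and 882 and against 2625, 3012 and 2721. The adaptor Dab1 was at 2021, 1309 and 1510 against 3353, 3311 and 3165 and against 8001, 8716 and 7709. Both were dips without overlap, by -1.05 ± 0.12 (adjusted p = 0.000356) and -1.05 ± 0.14 (adjusted p = 0.000834) from proliferating progenitors. Reln itself was not transient, at 534, 859 and 649 between 63 to 103 and 15817 to 18933 (chosen after its values were seen).

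**Figure D3:**
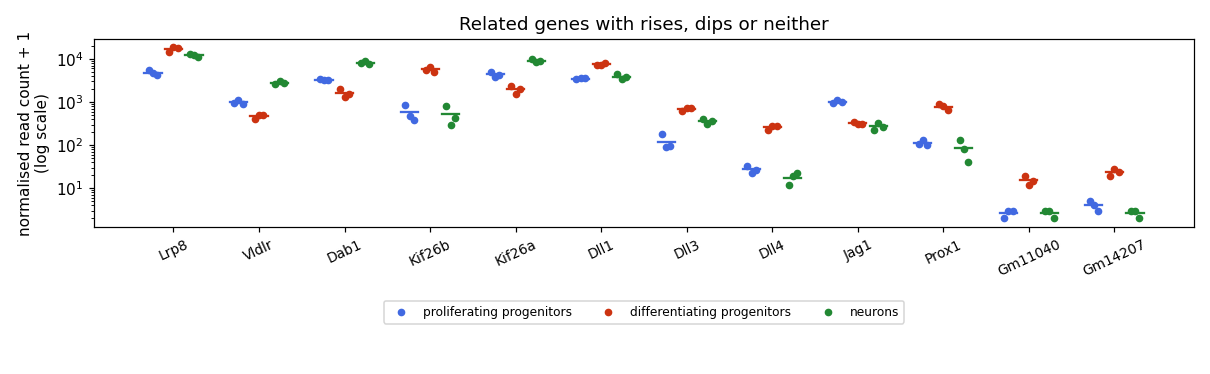
Normalised read count plus 1 on a log axis for related genes, 3 libraries per group as points and the group mean as a bar. Lrp8 and Kif26b are highest in differentiating progenitors while Vldlr, Dab1 and Kif26a are lowest there, and Jag1 lacks the rise of Dll1, Dll3 and Dll4.

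The lists for delamination and epithelial transition and for migration had larger called shares than all genes tested, on small numbers. The former also holds polarity and adhesion genes, so a rise in it is not by itself a rise of a delamination gene. Akna, a centrosomal protein that promotes delamination, was at 2791, 3374 and 3719 in differentiating progenitors against 1228, 1016 and 980 and against 990, 681 and 763, a rise of 1.61 ± 0.16 (adjusted p = 0.000172). Pard3, a polarity protein, was at 3551, 4183 and 3767 against 2044 to 2342 and 1080 to 1162, a rise of 0.78 ± 0.09. They were the 2 rises among 19 tested genes of the delamination and epithelial transition list (10.5%, against 2.2% of all genes tested), and the replicate block gave 4. The dip there, N-cadherin (Cdh2), fell by 0.33 and lost its call under total-sum scaling (adjusted p = 0.371), with replicates 2 and 3 alone (adjusted p = 0.0716) and without any 1 of 6 libraries (adjusted p = 0.0532 to 0.143). The migration list had 3 rises and 3 dips among 30 (10% each). Slit2, a guidance ligand, was at 2365, 2169 and 2295 against 946, 1257 and 1247 and against 646, 776 and 820, a rise of 1.0 ± 0.13. The chemokine Cxcl12, which is also a meningeal marker, rose by 0.99 and lost its call without any 1 of 4 differentiating progenitor or neuron libraries (adjusted p = 0.057 to 0.0752). Its list of 14 meningeal markers summed to 3949 to 4199 in differentiating progenitors, 3196 to 5758 in proliferating progenitors and 3140 to 3997 in neurons. Of these markers 1 was at 0 in each differentiating progenitor library, 5 in each neuron library and 0 in each proliferating progenitor library. The part of meningeal cells was not tested.

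Calls among cell cycle genes were near the share over all genes tested. None of 44 tested G1/S and replication genes was called, and of 49 G2/M genes 1 was called (2.04%), Kif20b. With the replicate block, 2 and 3 were called rises, where 779 of all 15828 genes tested were. By the rule of no overlap 15 of the 49 G2/M genes were rises, 30.6%, against 4% of all genes tested. The G2/M median difference was 0.26 against proliferating progenitors and 4.69 against neurons. Kif20b, a mitotic kinesin, rose by 0.4 and lost its call under total-sum scaling (adjusted p = 0.0779), with replicates 2 and 3 alone (adjusted p = 0.0912) and without any 1 of 4 progenitor libraries (adjusted p = 0.0715 to 0.105). Genes of cell cycle exit gave 3 rises and no dip among 27 (11.1%, against 2.2% of all genes tested), Btg2, Gadd45g and Gadd45a. The replicate block gave 4 rises and 1 dip for that list. Gadd45a, a relative of Gadd45g, was at 279, 390 and 394 against 152, 122 and 124 and against 165, 137 and 157, a rise of 1.19 ± 0.18. Btg2 itself, an antiproliferative factor, rose by 0.93 ± 0.17 (adjusted p = 0.00372) and 2.37 ± 0.17 (adjusted p = 2.88e-06), a contrast on which the cells were sorted. Bmf, a pro-apoptotic protein, was at 881, 913 and 804 against 148 to 223 and 435 to 628, a rise of 0.78 ± 0.18. It was the call among 29 p53 and apoptosis genes (3.45%). The replicate block gave 2 rises and 3 dips there.

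Chromatin genes gave 3 rises among 33 (9.09%). The replicate block gave 8 rises and 4 dips there, and 779 and 874 over all 15828 genes tested. Chd7, a remodelling helicase, was at 11433, 12322 and 12909 in differentiating progenitors against 7093, 7226 and 7209 and against 2122, 1886 and 1948, and rose by 0.77 ± 0.08 (adjusted p = 0.000167). The other 2, Arid2 and Chd6, rose by 0.33 and 0.27, and each lost its call without some libraries. For Arid2 the adjusted p was 0.0543 without neuron replicate 2 and 0.0609 without neuron replicate 3. For Chd6 it was 0.0595 to 0.081 without any 1 of 4 progenitor libraries, replicates 1 and 3 of the proliferating and 2 and 3 of the differentiating ones, and 0.0643 under total-sum scaling. Immediate early and stress genes gave 2 rises (7.69%) and 1 dip (3.85%) among 26, against 2.2% and 2.51% of all genes tested. The rises were Fos, at 1369, 925 and 659 against 342 to 502 and 307 to 342, and Ddit4, at 4479, 5108 and 4743 against 2062 to 2613 and 3526 to 3588. The dip was the nuclear receptor Nr4a1, another immediate early gene, at 110, 91 and 116 against 142 to 161 and 178 to 202, by -0.54, and its call ended without any 1 of 3 progenitor libraries (adjusted p = 0.0627 to 0.0936). Fos is an immediate early transcription factor and Ddit4 a stress-induced inhibitor of growth signalling, and they rose by 1.22 and 0.42. Fos values of the differentiating progenitor libraries spread over a wider range than either flanking group.

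Cajal-Retzius cells, the earliest cortical neurons, share several genes with the rises. Their list gave 3 rises and 1 dip among 15 (20% and 6.67%), and its sums were 5508 to 6001 in differentiating progenitors, 1874 to 2110 in proliferating progenitors and 22896 to 26633 in neurons. Its defining member Reln followed the sums, and no member was at 0 throughout a group. Besides Ebf2 and Dkk3, the rise was Zic1, a zinc finger factor of the dorsal midline, at 2513, 2346 and 2197 against 1014, 1156 and 1058 and against 915, 1008 and 761, by 1.13 ± 0.12. Its divergent neighbour Zic4, named after its values were seen, was at 389, 457 and 487 against at most 183 and 151 in the flanking groups, a rise of 1.32. The dip was A930038C07Rik, which encodes a secreted neurotrophic factor (Ndnf), at 26, 20 and 20 against 52 to 139 and 56 to 88. The part of Cajal-Retzius cells or their precursors in these values was not tested.

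**Figure D4:**
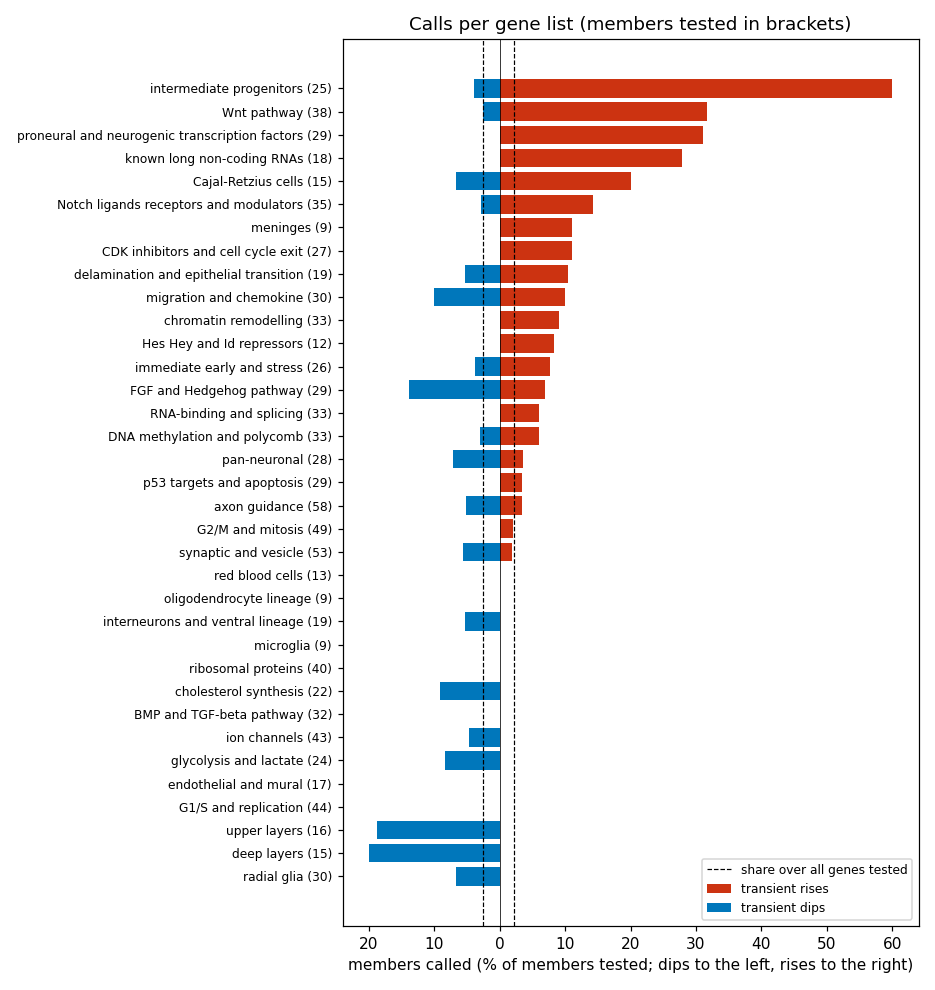
Share of tested members called a rise (red, to the right) or a dip (blue, to the left) for each of 35 gene lists, with the number of members tested in brackets and dashed lines at the share over all genes tested. Intermediate progenitor (60%), Wnt (31.6%) and proneural (31%) lists reach farthest to the right, deep layer (20%) and upper layer (18.8%) lists farthest to the left. The lists were chosen with earlier results of these data known. Wnt3a, Rspo1, Sp5 and Wnt9a were tested only because of their differentiating progenitor values, which adds to the Wnt share.

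Long non-coding RNAs made up 16 of the 349 rises (4.58%) and 7 of the 397 dips (1.76%), against 5.05% of all genes tested. Among 18 tested members of a list of known long non-coding RNAs, 5 were rises (27.8%, against 2.2% of all genes tested) and none a dip. That list, like the others, was chosen with earlier results of these data known. Miat, which binds splicing factors, was at 71571, 60619 and 79465 in differentiating progenitors, 24856, 15891 and 18085 in proliferating progenitors and 45013, 34037 and 37327 in neurons. Both flanking groups were lower in all libraries, by 1.86 ± 0.18 (adjusted p = 0.000144) and 0.86 ± 0.18 (adjusted p = 0.0031). Miat was not called when the larger of both p-values was adjusted. Rmst, a partner of Sox2 in neurogenesis, was at 589, 570 and 702 against 118 ± 45.4 (mean, SD, n = 3) in proliferating progenitors and 143, 115 and 136 in neurons, a rise of 2.23 ± 0.26.

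Gm16758 was at 93, 137 and 112 against 11 to 24 and 48 to 76 and rose by 0.93, and its call ended without any 1 of 4 libraries (adjusted p = 0.0733 to 0.104). 9630028B13Rik, an antisense transcript named after its values were seen, was at 1032, 1215 and 1210 against 94 to 148 and 238 to 448, a rise of 1.76. Among the dips, Gm15328 was at 31, 33 and 32 against 61 to 76 and 64 to 82 and fell by 1.09 on the log2 scale. It is a divergent neighbour of Cdh2.

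In 4 cases a long non-coding rise overlapped, on the opposite strand, a protein-coding rise. Gm14207 was at 18, 27 and 23 in differentiating progenitors against 2 to 4 and 1 to 2, and its annotated start lies 413 bases downstream of that of Dll4. Gm11040, which overlaps Prox1, was at 18, 11 and 14 against 1 to 2 in both flanking groups. Their differences were 2.58 ± 0.37 and 2.52 ± 0.39. Both, like Has2, were tested only because of their differentiating progenitor values, since no flanking value reached 10, as for 18 of the 349 called rises in all. The same limit holds where fewer than 3 flanking libraries reached 10, as for the named rises Wnt3a, Rspo1, Gm6320, Sp5 and Wnt9a. Gm16564, within Kif26b, was at 107, 73 and 75 against 7 to 25 and 1 to 13, and its rise of 2.64 lost its call without any 1 of 5 progenitor libraries, all but proliferating replicate 1 (adjusted p = 0.0655 to 0.0958). The fourth pair was Gm10561 and Rftn2. The libraries were strand-specific, but no source used here says how strand entered the counting, so reads of such partners cannot be told apart.

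With these 4 pairs included, 30 of 14096 adjacent pairs of tested genes were both called rises and 19 were both dips. Of the rise pairs 12 were divergent (40%), 12 on the same strand (40%) and 6 convergent (20%), where all adjacent pairs were 27.5% divergent, 45% on the same strand and 27.5% convergent. Whether these shares differ was not tested. Examples, named after their values were seen, are the divergent ligands Wnt3a and Wnt9a and the nicotinic receptor subunits Chrna3 and Chrnb4. Chrnb4 was at 93, 111 and 119 in differentiating progenitors against 19 to 40 and 18 to 30, a rise of 2.09, and Chrna3 at 110, 146 and 142 against 22 to 35 and 45 to 59, a rise of 1.35.

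The largest dips by the naming rule were smaller than the largest rises. Sparcl1, a matricellular protein of the radial glial surface, was at 95, 85 and 76 in differentiating progenitors, 452, 456 and 444 in proliferating progenitors and 745, 764 and 581 in neurons. The groups were far apart, with differences of -2.39 ± 0.14 (adjusted p = 1.52e-05) and -3.01 ± 0.14 (adjusted p = 2.53e-07). Camk1d, a calcium-dependent kinase, was between 150 and 207 against 829, 748 and 628 and against 824, 794 and 720. Here the flanking groups overlapped each other, and the differences were -2.07 ± 0.15 (adjusted p = 3.84e-05) and -2.16 ± 0.15 (adjusted p = 2.49e-06). Zcchc12, a transcriptional coactivator, had the same shape, at 58, 44 and 64 against 269, 235 and 224 and against 280, 302 and 245, and fell by 2.13 on the log2 scale.

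Diras2, a small GTPase of the brain, was at 59, 32 and 37 against 259, 231 and 174 and against 200, 190 and 198, and fell by 2.22 from the neurons. Adamts18, a secreted metalloprotease, was at 439, 397 and 489 against 1458, 1837 and 2100 and against 2267, 2657 and 2912, and fell by 2.01. Another protease of that family, Adamts3, was named after its values were seen and was at 482, 399 and 381 against 1091 to 1126 and 5204 to 6034. Bmp3, a secreted ligand that can oppose other bone morphogenetic proteins, was at 12, 14 and 11 against 44, 56 and 50 and against 333, 272 and 320. The differences were -1.93 ± 0.19 and -4.54 ± 0.19, so most of its contrast was with the neurons.

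**Figure D5:**
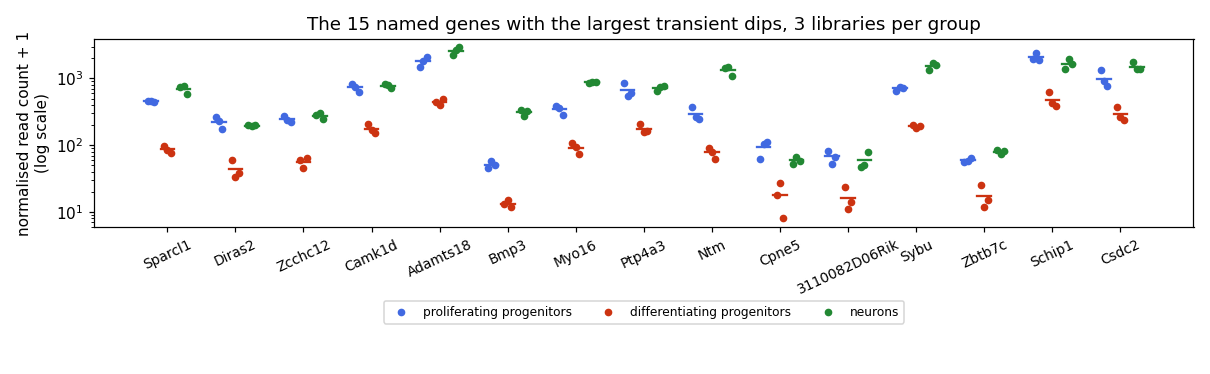
Normalised read count plus 1 on a log axis for the 15 largest called dips without overlap and with flanking means of at least 50. Points are the 3 libraries per group and bars the group means. The 3 differentiating progenitor points lie below all 6 others in each gene because the selection asked for it. In Bmp3, Myo16 and Ntm the neurons lie well above the proliferating progenitors.

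The remaining largest dips ran from -1.91 to -1.77. Myo16, an unconventional myosin, Ntm, a cell adhesion molecule of neurons, and Ptp4a3, a phosphatase, each fell by 1.91. Sybu, which links vesicles to kinesin, was at 198, 182 and 192 against 655 to 754 and 1332 to 1691. Schip1, a protein of the axon initial segment, was at 622, 420 and 382 against 1906 to 2388 and 1364 to 1946. In both, the differentiating progenitors stood apart from both sides, by -1.89 ± 0.11 and -1.82 ± 0.2. Cpne5, 3110082D06Rik, Zbtb7c and Csdc2 completed the 15. Pde4b, a cAMP phosphodiesterase, and Ntrk2, the receptor of brain-derived neurotrophic factor, were chosen after their values were seen and fell by 1.76 and 1.29. Ntrk2 was at 1269, 976 and 901 against 3400 to 4380 and 2338 to 2684.

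Calls among genes of cortical layer identity were dips in the main fit. Among 15 tested deep layer genes 3 were dips (20%) and none a rise. Among 16 upper layer genes 3 were dips (18.8%, against 2.51% of all genes tested) and none a rise. The upper layer list was not dips alone under other rules. With the replicate block it had 1 rise and 3 dips, where 779 and 874 of all 15828 genes tested were called. By the rule of no overlap it held 1 rise and 2 dips. Ldb2, a cofactor of LIM-domain factors, was at 69, 60 and 43 in differentiating progenitors, 201, 188 and 160 in proliferating progenitors and 1050, 1256 and 1044 in neurons. It fell by 1.68 (SE 0.19, adjusted p = 0.000297). Lmo3, a LIM-only protein, was at 708, 483 and 518 against 892 to 993 and 1828 to 2003 and fell by 0.76. Tox, a high mobility group factor, was at 297, 371 and 306 against 852, 984 and 760 and against 927, 1098 and 855, and fell by 1.41 (SE 0.14, adjusted p = 0.00017). The nuclear receptor Rorb, at no more than 204 against 271 to 459 and 392 to 523, fell by 0.9. Ntsr1 and Kitl, the third deep and upper layer calls, fell by 1.12 and 0.62. Kitl, a ligand, was named after its values were seen. Its groups overlapped, at 141, 191 and 148 against 269, 285 and 188 in proliferating progenitors, so it was not a dip by the rule of no overlap. Ntsr1, a peptide receptor, lost its call with replicates 2 and 3 alone (adjusted p = 0.122) and without any 1 of 8 libraries (adjusted p = 0.0565 to 0.129), and Kitl with replicates 2 and 3 alone (adjusted p = 0.148) and without any 1 of 7 libraries (adjusted p = 0.0518 to 0.134).

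Synaptic and adhesion genes included dips as well. Of 53 tested synaptic genes 3 were dips (5.66%, or 6 genes with the replicate block) and 1 a rise (1.89%). Grin2b, a subunit of the NMDA receptor, was at 42, 65 and 68 against 163, 146 and 97 and against 2302, 2655 and 2101. Gria3, a subunit of the AMPA receptor, was at 138, 179 and 219 against 409, 347 and 294 and against 2311, 2783 and 2640. Both were most abundant in neurons, and the differentiating progenitors lay below the proliferating progenitors by -1.2 ± 0.24 (adjusted p = 0.0064) and -0.98 ± 0.18 (adjusted p = 0.00459). Nlgn3, a postsynaptic adhesion molecule, and Nrcam, a neuronal one, fell by 0.67 and 0.74. In contrast Grin2c, another NMDA receptor subunit named after its values were seen, was a rise, at 142, 173 and 190 against 25, 33 and 29 and against 1, 2 and 2. Of 58 tested axon guidance genes 2 were rises (3.45%) and 3 dips (5.17%), and the replicate block gave 2 and 5. The rises were Slit2 and Sema3e, a semaphorin at 141, 195 and 146 against 48 to 100 and 30 to 35, which rose by 1.05 and lost its call without any 1 of 3 progenitor libraries (adjusted p = 0.0529 to 0.106). The dips were the semaphorins Sema4d and Sema6a, by -0.91 and -0.6, and the receptor Plxnc1, by -0.29. Plxnc1 lost its call under total-sum scaling (adjusted p = 0.527) and without any 1 of 5 libraries (adjusted p = 0.0545 to 0.133). Sema3f, named after its values were seen, fell by 1.63.

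Radial glial and growth factor genes gave a few dips. Ptprz1, a receptor phosphatase of radial glia, was at 6319, 5155 and 4385 in differentiating progenitors against 16905, 17756 and 14399 and against 9192, 12882 and 10736. It fell by 1.05 (SE 0.16, adjusted p = 0.000489) from the neurons and was, with Cdh2, the dip among 30 radial glia genes (6.67%), while Pax6, chosen after its values were seen, declined along the lineage from 9447 to 10770, through 6176 to 6563, to 378 to 518. Of 29 FGF and Hedgehog pathway genes 4 were dips (13.8%) and 2 rises (6.9%). Spry2, a feedback inhibitor of FGF signalling, was at 280, 264 and 314 against 554, 630 and 586 and against 501, 495 and 455, and fell by 0.76 (SE 0.11, adjusted p = 0.000257). Fgf13, an intracellular relative of the FGFs, was at 626, 542 and 449 against 1140 to 1556 and 913 to 991 and fell by 0.85. Both rises, Fgf17 (1.51) and Sufu (0.3), and the dip Spred2 (-0.53), an inhibitor of Ras signalling named after its values were seen, lost their calls without some single libraries (adjusted p = 0.0597 to 0.0962, 0.0545 to 0.124 and 0.0512 to 0.138). Sufu and Spred2 also lost them under total-sum scaling (adjusted p = 0.0718 and 0.204). Spred2 was not a dip by the rule of no overlap, at 1159, 719 and 705 against 1357, 1179 and 1102 in neurons. The receptor Fgfr1, at 3386, 3072 and 3139 against 5438 to 6523 and 3600 to 4335, fell by 0.27 and lost its call under total-sum scaling (adjusted p = 0.627) and without any 1 of 6 libraries (adjusted p = 0.0521 to 0.168).

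Besides the G1/S genes, several lists gave no call. These were the 32 tested BMP and TGF-beta genes, which do not include Bmp3, the 40 ribosomal protein genes, and the markers of red blood cells, microglia, the vessel wall and the oligodendrocyte lineage. Of 24 glycolysis genes 2 were dips (8.33%, against 2.51% of all genes tested), the hexokinase Hk1 by -0.51 and the transporter Slc2a3 by -0.4. Of 22 cholesterol synthesis genes 2 were dips (9.09%), Cyp51 by -0.29 and Sqle by -0.26. With the replicate block, the BMP list had 2 rises and 3 dips and the cholesterol list 8 dips. Over all 15828 genes tested the block gave 779 rises and 874 dips. All 4 named metabolic genes lost their calls under some alternatives. For Hk1 these were 3 single libraries (adjusted p = 0.0537 to 0.0894) and for Slc2a3 they were 7 (adjusted p = 0.0507 to 0.127). For Cyp51 they were total-sum scaling (adjusted p = 0.414) and neuron replicate 2 (adjusted p = 0.0642), and for Sqle total-sum scaling (adjusted p = 0.644). Total-sum scaling shifted the difference from neurons by 0.21 and that from proliferating progenitors by -0.07 for all genes, so differences of this size are relative to the authors' scaling.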

How the data were processed

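Poly-A RNA of 9 sorted pools was sequenced in strand-specific libraries, per the labels. Build mm9, DESeq 1.8.1, bedtools 2.11, BWA and CASAVA 1.8.0 are named in the submitters' processing notes, but neither the step each served nor the strand setting of the counting. The authors deposited a whole-number score per gene and library, described as a normalised read count, with the gene length in another column. Per the file headers the 21210 genes follow Ensembl version 61. The values look like counts divided by a factor per library and rounded, so no count model was fitted.

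Values were tested with limma 3.58.1 in R 4.3.3 on log2(value + 1) with an intensity trend, 3 group means, all 9 libraries and 6 residual degrees of freedom. A gene entered the test if 3 or more libraries held a value of 10 or more. The Benjamini-Hochberg adjustment ran over all such genes. Calls needed an adjusted p below 0.05 in both contrasts, which share the differentiating progenitor libraries. The fit was tested on simulated data. The median standard error of a log2 difference was 0.18.

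Named were, per direction, the 15 largest calls without overlap with a group mean of at least 50 (for dips, a flanking mean), the 4 largest long non-coding calls with at least 10, and up to 4 per gene list. Others are said to be chosen after their values were seen. Members and lists were chosen with earlier results of these data known. Gene types came from GENCODE release M21 and promoter windows from RefSeq on GRCm38.p6.

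Replicate numbers pair the samples by the correlation of their deviations from the group means, 0.507 to 0.767 for 9 pairs of the same number and -0.64 to 0.428 for 18 others. Pseudogenes took 1.76% to 2.48% of the normalised total in replicate 1 libraries and 0.498% to 0.707% in the others. The alternatives were other pseudocounts, filters and scalings, the replicate block, replicates 2 and 3 alone, and leaving out each library.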

Additional observations from a re-analysis of the deposited data

How the results depend on the processing

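The replicate block left 4 residual degrees of freedom and gave 779 rises and 874 dips in place of 349 and 397. It ended no call of a named gene. Replicates 2 and 3 alone gave 526 rises and 624 dips, of which 331 and 363 were among the main calls. Adjusting the larger of both p-values gave 142 rises and 136 dips, asking for at least 2-fold from each flanking group gave 141 and 134, and a single contrast against the mean of both flanking groups gave 2566 and 2411, since it does not ask for a difference from each. Leaving out 1 library gave 222 to 359 rises and 249 to 457 dips. Without overlap, a gap of at least 1.5-fold left 163 rises and 124 dips of 674 and 731, replicates 2 and 3 alone gave 1594 and 1664, and leaving out 1 library gave 702 to 1214 and 773 to 1191. Total-sum scaling gave 385 rises and 399 dips, of which 294 and 310 were among the main calls. Pseudocounts of 5 and 0.5, no filter, a stricter filter and a fit without a trend gave 316 to 374 rises and 366 to 394 dips. Of 134 named calls, 95 passed under each of 13 alternatives and 39 failed in at least 1, 21 of them only when a library was left out. Adjusting the larger of both p-values is not among the 13, and 85 of the 134 named calls passed it. Miat, Lrp8, Dll3, Fzd1, Bmf, Ddit4, Rorb, Cpne5, Gm6320 and A930038C07Rik passed under all 13 but not there. No named difference changed sign. Depth limits the low genes: those with fewer than 3 libraries at 10 or more were not tested.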

Other observations

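Some large rises fall in none of the gene lists, and those given here were picked after their values were seen. Nfatc2, a calcium-regulated transcription factor, was at 899, 967 and 1153 in differentiating progenitors, 238, 158 and 157 in proliferating progenitors and 201, 192 and 169 in neurons, a rise of 2.42 on the log2 scale (limma adjusted p = 4.12e-05 and 4.2e-06). All 3 libraries stood far above both flanking groups, which overlapped each other. Arap2, a regulator of small GTPases, was at 141, 158 and 164 against 16 to 23 and 24 to 40. Htra1, a secreted protease, was at 607, 626 and 603 against 79 to 184 and 8 to 16, and Mybpc1, best known as a muscle myosin-binding protein, was at 211, 202 and 259 against 26 to 68 and 0 to 2. Among the dips, Syt2, a vesicle calcium sensor, was at 24, 32 and 31 against 65 to 135 and 86 to 94, a fall with a log2 difference of -1.58.

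Called genes were longer than the genes tested as a whole, with a median length of 4363 bases for rises and 4371 bases for dips against 3393 bases. The sets also differed in gene class, with 94.8% of rises and 96% of dips protein-coding against 84.6% of genes tested. Length within a class was not tested.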
